A study of Mus musculus with 21 samples.

Results

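This account is about the 3 mouse genes for transforming growth factor beta, Tgfb1, Tgfb2 and Tgfb3, and about Ltbp2, which encodes latent TGF-beta binding protein 2, in newly made and total RNA of hearts from mice bred to lose or keep Lmna, the gene of lamin A/C, in heart muscle cells. Members were selected by position: intervals of the deposited table that lie in a window of the mm39 build on the gene's strand, keeping the most read of overlapping ones. The windows span each gene, on chromosome 7 (Tgfb1, plus strand), chromosome 1 (Tgfb2, minus strand) and chromosome 12 (Tgfb3 and Ltbp2, both on the minus strand). This gave 10 of the 120310 intervals kept in all, namely 7 for Tgfb1 and 1 each for Tgfb2, Tgfb3 and Ltbp2. Within the windows no measured value was used to pick members, apart from the reads that decide between overlapping intervals. The genes themselves were chosen with earlier results of these data known.

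The mice were sampled by SLAM-IT-seq, in which 4-thiouracil enters new RNA mainly in cells that carry uracil phosphoribosyltransferase (Uprt), and a chemical step makes it read as a T>C conversion. All mice were Myh6MCM Tg/0, so an inducible Cre recombinase was driven by the promoter of Myh6, a heart muscle myosin, and all received tamoxifen at 6 to 8 weeks of age on 4 days. Hearts were taken 2 weeks after tamoxifen and 6 hours after 4-thiouracil, and 1 library was made from the left-ventricular free wall of each mouse. There were 6 mice with Lmna F/F and Uprt Tg/0 (4 females and 2 males) against 8 with Lmna +/+ and Uprt Tg/0 (4 females and 4 males). A further 4 mice were Lmna F/F with no Uprt transgene (2 females and 2 males), against 3 that were Lmna +/+ with no Uprt transgene (all male). F denotes a floxed allele, so deletion in Lmna F/F mice follows Cre in cardiomyocytes, and other cells of the wall keep the gene. The Lmna +/+ controls therefore share the Cre transgene, tamoxifen and 4-thiouracil with the Lmna F/F mice.

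The 21 libraries held 25947355 to 50951634 reads on the kept intervals, and the 10 members drew 18720 of these reads in all, 507 of them with a T>C conversion. Reads with a conversion made up 4.78% to 5.46% of a library in Lmna F/F mice with Uprt and 4.52% to 5.92% in Lmna +/+ mice with Uprt. In mice with no Uprt the share was 3.37% to 4.09% for Lmna F/F and 3.08% to 3.83% for Lmna +/+, and this is the background against which a labelled share is read. Since the RNA came from a whole piece of wall, a change in the number of cells of a type and a change in RNA per cell cannot be told apart. Markers of the tissue and of its cell types were not analysed here. The TMM factors, which adjust library size for differences in composition, ran from 0.861 to 1.19. Lmna F/F no Uprt replicates 1 and 2 had the highest, 1.19 and 1.17, and the next highest was 1.11.

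TGF-beta is secreted as a latent complex: the active dimer is held by its own propeptide, and most latent binding proteins tie that complex to the extracellular matrix until integrins, proteases or force release it. The freed ligand binds type II and type I receptors, which phosphorylate SMAD transcription factors, and in the heart this pathway is known for fibroblast activation and matrix deposition. LTBP2 is the exception in its family, since it binds fibrillin and matrix but not latent TGF-beta, and it is produced largely by fibroblasts.

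The start regions of the genes that were called higher in some comparison below are shown with that of Tgfb1, which was not. They are the 250 bases before the start of transcription in RefSeq on GRCm38.p6, a build other than that of the files, and 3 of the 4 genes matched (Tgfb3 is named only). Capitals mark matches, on either strand, to the SMAD core CAGAC, the AP-1 motif TGANTCA, the cyclic AMP response element TGACGTCA, the GC box GGGCGG and the TATA motif TATAAA; no 2 of the printed matches overlap.
Tgfb2 (chr1:186705990-186706239, minus strand): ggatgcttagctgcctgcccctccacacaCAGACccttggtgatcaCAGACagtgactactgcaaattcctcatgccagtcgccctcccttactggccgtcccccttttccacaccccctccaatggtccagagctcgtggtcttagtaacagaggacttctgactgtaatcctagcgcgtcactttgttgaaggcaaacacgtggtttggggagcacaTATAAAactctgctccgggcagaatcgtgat
Ltbp2 (chr12:84876492-84876741, minus strand): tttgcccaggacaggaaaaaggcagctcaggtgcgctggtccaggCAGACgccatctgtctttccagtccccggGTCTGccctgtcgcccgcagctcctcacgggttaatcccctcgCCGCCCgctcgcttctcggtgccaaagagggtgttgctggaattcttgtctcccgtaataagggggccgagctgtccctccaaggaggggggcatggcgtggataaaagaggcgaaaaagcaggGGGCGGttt
Tgfb1 (chr7:25686752-25687001, plus strand): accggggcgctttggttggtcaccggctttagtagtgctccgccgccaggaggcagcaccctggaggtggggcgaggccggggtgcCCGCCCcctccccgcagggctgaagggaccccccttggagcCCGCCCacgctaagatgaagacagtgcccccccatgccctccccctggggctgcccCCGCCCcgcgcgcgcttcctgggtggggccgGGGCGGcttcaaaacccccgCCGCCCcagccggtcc
The Tgfb2 stretch held 2 SMAD matches and 1 TATA match. The Ltbp2 stretch held 2 SMAD matches and 2 GC boxes, and the Tgfb1 stretch held 5 GC boxes. A SMAD match occurs in 42.2% of the 32851 RefSeq start regions of the same length, a GC box in 32.7% and a TATA match in 12.4%. The AP-1 motif (6.75% of start regions) and the cyclic AMP element (1.55%) had no match in these 3 stretches. G and C made up 53.6% of the Tgfb2 stretch, 61.6% of that of Ltbp2 and 75.2% of that of Tgfb1. These matches are letters in a window and not measured binding sites.

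The libraries read the 3′ ends of transcripts. The most read Tgfb2 interval lies on chromosome 1 from 186354989 to 186357644, is 2656 bases long with 822 T positions, and held 9619 reads over the 21 libraries. That of Tgfb3 lies on chromosome 12 from 86103519 to 86104553 (1035 bases, 260 T positions, 4904 reads), and that of Ltbp2 on the same chromosome from 84829986 to 84831023 (1038 bases, 253 T positions, 1523 reads). The most read Tgfb1 interval, on chromosome 7 from 25404368 to 25404502, is only 135 bases long with 12 T positions and held 2298 reads. It took 85.9% of all Tgfb1 reads, while the 6 other Tgfb1 intervals held 1 to 217 reads each. A read on the Tgfb1 interval covered 8.72 T bases on average, against 24.9 for Tgfb2, 22.5 for Tgfb3 and 21.9 for Ltbp2, so a Tgfb1 read offered fewer bases at which a conversion could be seen. Reads that map to several places were 18 for Tgfb2, 3 for Tgfb3 and 0 for Ltbp2 and for the most read Tgfb1 interval.

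Tgfb2, the ligand best known from heart valve and outflow tract development, was higher in Lmna F/F than in Lmna +/+ hearts among mice with Uprt and among mice without. With Uprt it had 11.3, 14.2 and 14.8 CPM (reads per 1000000 after TMM scaling; lowest, median and highest) in Lmna F/F hearts, against 5.06, 7.50 and 12.0 CPM in Lmna +/+ hearts. The means were 13.4 ± 1.65 CPM (SD, n = 6) and 7.79 ± 2.58 CPM (SD, n = 8). Of the 6 Lmna F/F libraries 4 lay above every Lmna +/+ library, and the other 2 lay just under the highest of them. The log2 fold change was 0.76 ± 0.19 (SE), with an adjusted p of 0.0282 in edgeR's quasi-likelihood test over 31182 intervals. In that comparison 2.18% of all intervals tested were called higher in Lmna F/F, and among the members that passed the low-count filter, 6 of 10, Tgfb2 alone was called.

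In the fit of all 21 libraries the call for Tgfb2 with Uprt rests on small margins. It was lost (adjusted p of up to 0.0995, log2 fold change of at least 0.65) when any one of Lmna F/F Uprt replicates 1, 2, 3 and 5 or Lmna +/+ Uprt replicates 2, 4, 5 and 6 was left out. In females alone the log2 fold change was 0.45 ± 0.15 (SE, 4 against 4, edgeR adjusted p = 0.252), and in males alone 1.20 ± 0.21 (SE, 2 against 4, edgeR adjusted p = 0.0136). A fit of the 14 libraries with Uprt alone gave 0.74 ± 0.14 (SE, edgeR adjusted p = 0.00260). In DESeq2 on all libraries the adjusted p was 0.0116. Of 12 settings other than leaving out 1 library, 11 kept the call, and it was lost in females alone.

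Without Uprt, Tgfb2 had 27.4, 28.9, 12.4 and 10.1 CPM in the 4 Lmna F/F hearts (replicates 1 to 4), against 8.86, 6.71 and 6.55 CPM in the 3 Lmna +/+ hearts. All Lmna F/F values lay above all Lmna +/+ values, but 2 Lmna F/F libraries were more than 3 times as high as any control and 2 were close to the control range. The log2 fold change was 1.21 ± 0.29 (SE), with an edgeR adjusted p of 0.0138. The Lmna +/+ mice without Uprt were all male, so the sex term of the fit rests on the other groups. With no sex term the log2 fold change of Tgfb2 was 1.42 (edgeR adjusted p = 0.00736). In the fit with the sex term 3.46% of all intervals were called higher, and the members called were Tgfb2 and Ltbp2, 2 of the 6 tested. How many of all intervals separate the 2 groups in full was not counted.

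Replicates 1 and 2 of these Lmna F/F hearts held the 2 highest Tgfb2 values, so leaving them out was bound to lower the fold change. With this pair left out, the log2 fold change of Tgfb2 was 0.36 ± 0.24 (SE, edgeR adjusted p = 0.800), on 2 against 3 libraries. The call was also lost without Lmna F/F replicate 1 (0.75, adjusted p = 0.203), without Lmna +/+ replicate 2 (1.13, adjusted p = 0.0695) and without Lmna +/+ replicate 3 (1.12, adjusted p = 0.0691).

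**Figure D1:**
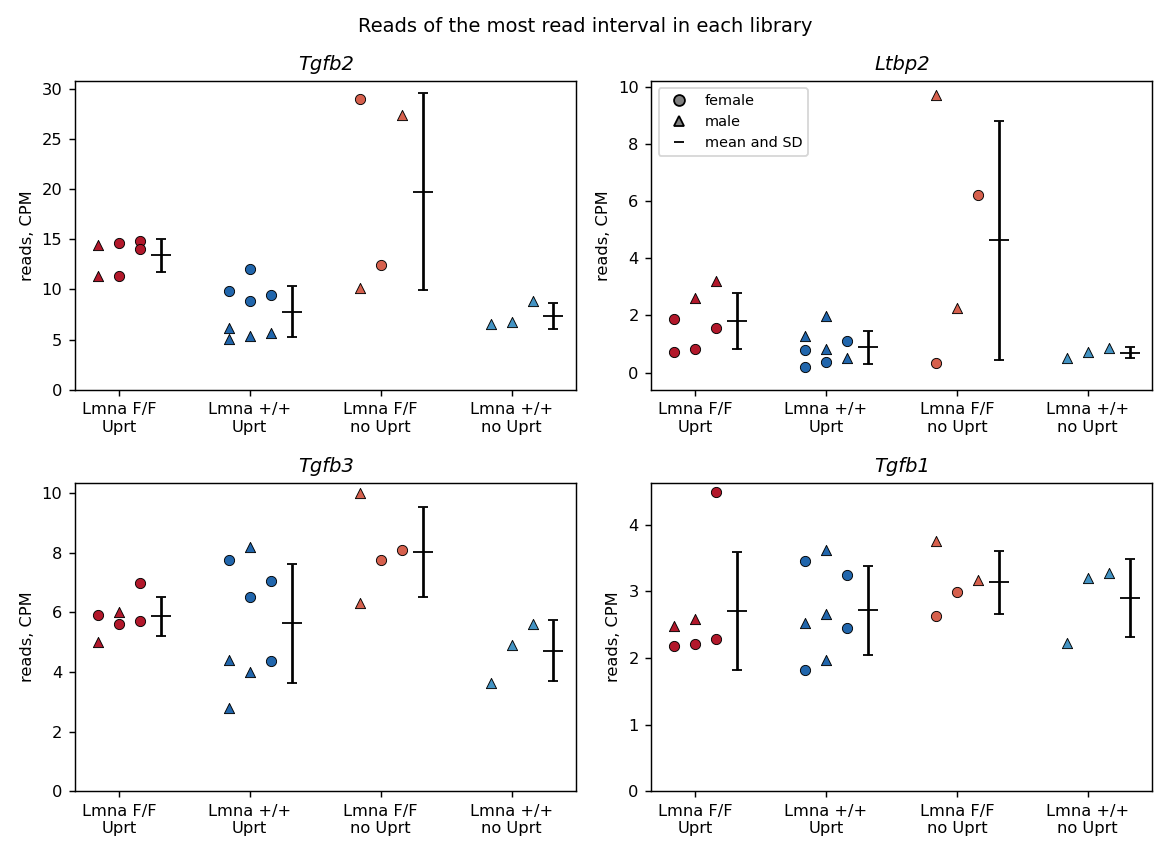
Reads of the most read interval of Tgfb2, Ltbp2, Tgfb3 and Tgfb1 in each of the 21 libraries, in CPM after TMM scaling, by group (circles females, triangles males; bars are mean and SD). Tgfb2 lies at 11.3 to 14.8 CPM in Lmna F/F mice with Uprt and at 5.06 to 12.0 CPM in Lmna +/+ mice with Uprt, and 2 of the 4 Lmna F/F mice with no Uprt stand at 27.4 and 28.9 CPM.

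Sex separated the 8 Lmna +/+ libraries with Uprt in their Tgfb2 level, a pattern that was looked for after the values were seen. Among Lmna +/+ mice with Uprt the 4 females had 8.81, 9.42, 12.0 and 9.85 CPM, against 5.06, 5.31, 6.19 and 5.66 CPM in the 4 males. The female and male values did not overlap within this group, although a male Lmna +/+ mouse without Uprt (replicate 1) had 8.86 CPM. How many of all intervals separate the sexes in this way was not counted. The log2 difference in Tgfb2, female minus male, was 0.86 ± 0.16 (SE, edgeR adjusted p = 0.00837 over 25457 intervals). Of all intervals 0.409% were called higher in females there, and no other member was called. In Lmna F/F mice with Uprt the 4 females had 14.65, 14.8, 11.3 and 13.99 CPM and the 2 males 11.3 and 14.4 CPM, a log2 difference of 0.09 ± 0.19 (SE, edgeR adjusted p = 1.00). The difference in the Lmna effect between the sexes, female minus male, was -0.77 ± 0.24 on the log2 scale (SE), with an unadjusted p of 0.00505 and an edgeR adjusted p of 1.00, so it did not pass.
Without Lmna +/+ Uprt replicate 4 the sex difference in Lmna +/+ mice was 0.84 with an adjusted p of 0.0506.

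Tgfb3, a ligand with roles in palate closure and in matrix-producing cells, did not pass the test in either genotype comparison. With Uprt it had 5.01, 5.80 and 6.99 CPM (lowest, median, highest) in Lmna F/F hearts and 2.79, 5.45 and 8.18 CPM in Lmna +/+ hearts. The Lmna F/F range lay inside the Lmna +/+ range, and the log2 change of 0.03 ± 0.19 (SE) had an edgeR adjusted p of 0.969. Without Uprt it had 9.98, 8.08, 7.75 and 6.32 CPM in Lmna F/F hearts, against 5.62, 4.92 and 3.62 CPM in Lmna +/+ hearts. Here the groups did not overlap, yet the log2 fold change of 0.67 ± 0.28 (SE) had an edgeR adjusted p of 0.194. How many of all intervals separate these groups was not counted, and 5439 of 31182 had an unadjusted edgeR p under 0.05.

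Tgfb1, the ligand most often tied to cardiac fibrosis, also did not pass the test in either comparison. With Uprt its most read interval had 2.19, 2.38 and 4.49 CPM (lowest, median, highest) in Lmna F/F hearts and 1.81, 2.59 and 3.61 CPM in Lmna +/+ hearts. The log2 change of -0.01 ± 0.21 (SE) had an edgeR adjusted p of 0.995. Without Uprt it had 3.75, 2.99, 2.63 and 3.17 CPM in Lmna F/F hearts, against 3.27, 3.20 and 2.23 CPM in Lmna +/+ hearts. The groups overlapped again, and the log2 change of 0.12 ± 0.30 (SE) had an edgeR adjusted p of 0.900.

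The other Tgfb1 intervals carried few reads. The second, from 25388315 to 25390887, had 0 to 0.547 CPM in a library, and the third, from 25387573 to 25387648, had 0 to 0.377 CPM. Their log2 fold changes with Uprt were 0.38 ± 0.62 and -0.94 ± 1.06 (SE), and without Uprt -0.60 ± 0.88 and 0.71 ± 1.60 (SE), with edgeR adjusted p-values of 0.775 or more. The remaining 4 intervals, with 44 reads or fewer in all libraries together, did not pass the low-count filter.

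Ltbp2 had the largest log2 fold changes of the 6 members tested, 1.14 with Uprt and 3.17 without, and only the change without Uprt passed the test. With Uprt it had 0.723, 1.71 and 3.21 CPM (lowest, median, highest) in Lmna F/F hearts and 0.204, 0.806 and 1.98 CPM in Lmna +/+ hearts. Only 2 of the 6 Lmna F/F libraries lay above every Lmna +/+ library. The log2 fold change of 1.14 ± 0.45 (SE) had an unadjusted p of 0.0170 and an edgeR adjusted p of 0.210. With no low-count filter the same test gave 1.14 ± 0.27 (SE) and an adjusted p of 0.00221, where 1145 of 64424 intervals were called higher. The fold change was the same and only its SE was smaller, so this is not separate support.

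Without Uprt, Ltbp2 had 9.72, 6.20, 0.317 and 2.25 CPM in the 4 Lmna F/F hearts (replicates 1 to 4), against 0.873, 0.504 and 0.707 CPM in the 3 Lmna +/+ hearts. The groups overlapped, since replicate 3 of the Lmna F/F hearts was the lowest of the 7 libraries while the other 3 lay above all controls. The log2 change of 3.17 ± 0.70 (SE) passed with an edgeR adjusted p of 0.00789. With no sex term the log2 change was 2.73 (edgeR adjusted p = 0.0294). The mean was 4.62 ± 4.19 CPM in Lmna F/F hearts and 0.695 ± 0.184 CPM in Lmna +/+ hearts (SD, n = 4 and n = 3).

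The 2 highest Ltbp2 values of the study were in the same libraries as the 2 highest Tgfb2 values, Lmna F/F no Uprt replicates 1 and 2. Leaving out these highest values was bound to lower the log2 fold change of Ltbp2 without Uprt. Without both libraries it was 1.15 ± 0.60 (SE, edgeR adjusted p = 0.667), on 2 against 3 libraries. Without replicate 1 alone it was 2.70 (adjusted p = 0.0725). These 2 libraries had 27.0% and 29.7% of their reads on mitochondrial intervals, within the 23.7% to 33.6% of all libraries. Scaled by library size alone, without TMM factors, the log2 fold changes without Uprt were 1.39 for Tgfb2 and 3.38 for Ltbp2 (edgeR adjusted p = 0.00954 and 0.00427), where the median of all intervals was 0.17.

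**Figure D2:**
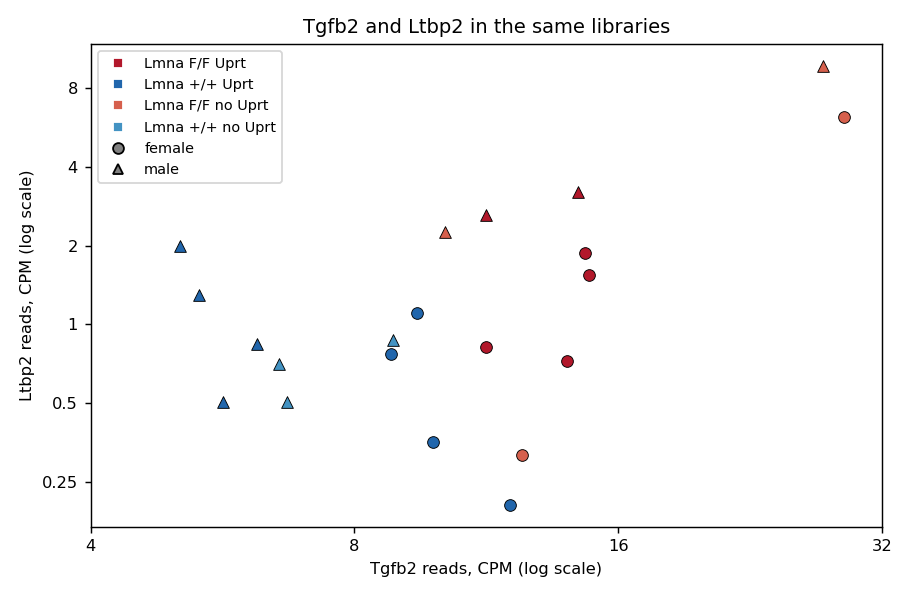
Ltbp2 against Tgfb2 in each of the 21 libraries, both in CPM after TMM scaling on log2-spaced axes (colours are groups, circles females and triangles males). Lmna F/F no Uprt replicates 1 and 2 stand alone at the upper right with 27.4 and 28.9 CPM of Tgfb2 and 9.72 and 6.20 CPM of Ltbp2.

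The Lmna effect was then compared between mice with and without Uprt in the same fit, as with minus without. The log2 difference was -0.44 ± 0.34 for Tgfb2, -0.63 ± 0.33 for Tgfb3, -0.13 ± 0.35 for Tgfb1 and -2.03 ± 0.80 for Ltbp2 (SE). None of them passed, and Ltbp2 came nearest with an unadjusted p of 0.0169 and an edgeR adjusted p of 0.623. Of all intervals 0% were called (0 of 31182 in edgeR, with 2198 at an unadjusted p under 0.05, and 8 in DESeq2). With no low-count filter the Ltbp2 difference was close to the same, -2.01 ± 0.49, with a smaller SE (edgeR adjusted p = 0.0114). Leaving out the pair of Lmna F/F libraries with the highest Ltbp2 values was bound to raise the Ltbp2 difference. It was then 0.01 ± 0.67 (SE), in a setting added after the values were seen.
No member passed in the main fit, so the effect with Uprt is not shown to differ from that without Uprt.

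**Figure D3:**
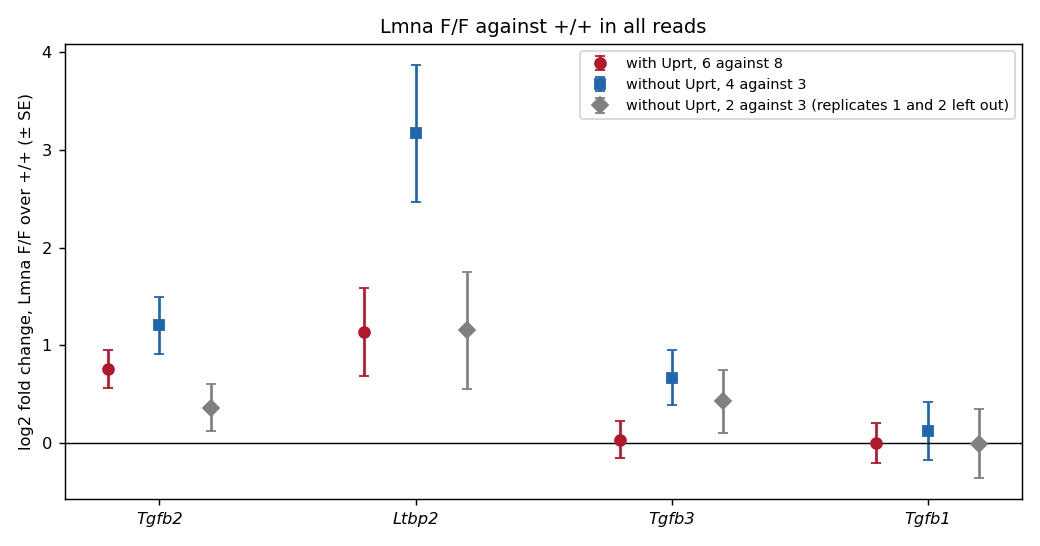
Log2 fold change of Lmna F/F over Lmna +/+ in all reads (points, with SE bars) for the most read interval of each gene, in mice with Uprt, in mice without Uprt, and in mice without Uprt after Lmna F/F replicates 1 and 2 were left out. Tgfb2 stands at 0.76, 1.21 and 0.36 and Ltbp2 at 1.14, 3.17 and 1.15 in these 3 settings, while Tgfb1 stays between -0.01 and 0.12.

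Within a group the members did not rise and fall together in a way that passed a test. Among the 8 Lmna +/+ mice with Uprt, Tgfb2 and Ltbp2 ran in opposite directions (Pearson r = -0.69 and Spearman rho = -0.79 on log2 CPM, exact permutation p = 0.0650 and 0.0279). The adjusted p over 12 such relations was 0.260, and r was -0.30 without the 2 libraries farthest from the median of Tgfb2. In this group females had more Tgfb2 and, with 0.204 to 1.11 CPM against 0.503 to 1.98 CPM in males, lower Ltbp2 on average, so the relation and sex cannot be told apart here. Among the 6 Lmna F/F mice with Uprt, Tgfb2 and Tgfb3 had r = 0.73 and rho = 0.83 (exact permutation p = 0.0625 and 0.0583, adjusted 0.260 for r), and r was 0.48 without the 2 farthest libraries. No relation of the 12 passed after adjustment.

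Reads with a T>C conversion were then examined, since they include the RNA made during labelling. Tgfb2 was the only member with enough of them for the fit on T>C read counts. In Lmna F/F mice with Uprt it had 6, 48, 26, 29, 27 and 6 T>C reads (replicates 1 to 6), 142 in all, against 22, 8, 13, 3, 5, 2, 17 and 17 (replicates 1 to 8), 87 in all, in Lmna +/+ mice with Uprt. The ranges overlapped. The log2 fold change in T>C reads was 0.84 ± 0.47 (SE, edgeR adjusted p = 0.789), and 0.482% of the 10378 intervals tested were called in either direction.

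The converted share of Tgfb2 reads did not differ detectably between genotypes. It was 4.27% of 3323 pooled reads in Lmna F/F mice with Uprt (95% exact binomial interval 3.61% to 5.02%) and 4.12% of 2110 in Lmna +/+ mice with Uprt (3.32% to 5.06%). Single libraries ran from 0.940% to 7.38% and from 1.38% to 6.90%, so the spread between mice was wider than these intervals, which cover counting error only. The log2 difference in the odds of a conversion was -0.06 ± 0.56 (SE, edgeR share model, adjusted p = 1.00). In that comparison 0.00741% of the 13490 intervals tested were called.

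Against mice with no Uprt, the Tgfb2 share was higher with Uprt but did not pass after adjustment. Without Uprt it was 2.31% of 3289 reads in Lmna F/F mice (1.82% to 2.88%) and 1.23% of 897 reads in Lmna +/+ mice (0.614% to 2.18%). Over both genotypes the log2 difference in odds was 1.07 ± 0.47 (SE), with an unadjusted p of 0.0319 and an edgeR adjusted p of 0.0559. In the same test 55.9% of all intervals were called higher with Uprt. By library the mean share was 3.97% ± 2.13 with Uprt and 1.76% ± 0.913 without (SD, n = 14 and n = 7, two-sided exact permutation p = 0.0182, adjusted 0.292 over 16 comparisons of the 4 genes). Without the sex term the model gave 1.25 and an adjusted p of 0.0167, and the call was also gained on leaving out single libraries, Lmna F/F Uprt replicate 1 or 6, Lmna +/+ Uprt replicate 4 or 6, or Lmna +/+ no Uprt replicate 3 (1.15 to 1.46).

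Tgfb3 had 38 T>C reads of 1458 in Lmna F/F mice with Uprt, a share of 2.61% (1.85% to 3.56%), and 46 of 1518 in Lmna +/+ mice with Uprt, 3.03% (2.23% to 4.02%). In mice with no Uprt the pooled shares were 9 of 1358 reads, 0.663% (0.303% to 1.25%), in Lmna F/F, and 22 of 570, 3.86% (2.43% to 5.79%), in Lmna +/+. These intervals cover counting error only, and the share was not tested between genotypes without Uprt. The pooled share with Uprt was above its no-Uprt counterpart in Lmna F/F mice and not in Lmna +/+ mice, but neither difference passed the test. The log2 differences, Uprt minus none, were 1.60 ± 0.83 in Lmna F/F and -0.92 ± 0.84 in Lmna +/+ (SE, edgeR adjusted p = 0.124 and 0.409), and 0.34 ± 0.62 over both (adjusted p = 0.665). Between genotypes with Uprt it was -0.36 ± 0.66 (adjusted p = 1.00). Only 61 conversions over T positions were listed for its 115 T>C reads, against 314 for the 316 T>C reads of Tgfb2, and how the table counts the first and not the second is not given in the sources used here.

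Ltbp2 and Tgfb1 had too few T>C reads for the share model, and those they had sat in few libraries. Ltbp2 had 6 of 421 reads with a conversion in Lmna F/F mice with Uprt, 1.43% (0.525% to 3.08%), and 1 of 243 in Lmna +/+ mice with Uprt, 0.412% (0.0104% to 2.27%). Without Uprt it had 21 of 774 in Lmna F/F mice, 2.71% (1.69% to 4.12%), and 4 of 85 in Lmna +/+ mice, 4.71% (1.30% to 11.6%). Of the 21 libraries 15 had no T>C read of Ltbp2, and the 21 reads in Lmna F/F mice without Uprt came from replicate 1 (12 reads) and replicate 4 (9 reads).

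Tgfb1 gave 2 of 667 reads with a conversion in Lmna F/F mice with Uprt, 0.300% (0.0363% to 1.08%), and 13 of 745 in Lmna +/+ mice with Uprt, 1.74% (0.932% to 2.97%). Of those 13 reads 11 came from Lmna +/+ Uprt replicate 5. Without Uprt it gave 9 of 535, 1.68% (0.772% to 3.17%), in Lmna F/F mice and 11 of 351, 3.13% (1.57% to 5.54%), in Lmna +/+ mice. By library the mean difference, Uprt minus none, was -1.47 percentage points for Tgfb1 and -2.68 for Ltbp2, with two-sided exact permutation p-values of 0.199 and 0.0633 (adjusted 0.468 and 0.338). A labelled share above the background of mice without Uprt was therefore not seen for Tgfb1 and Ltbp2, since both mean differences were negative. These shares rest on few T>C reads, and the reason for the missing label was not tested.

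**Figure D4:**
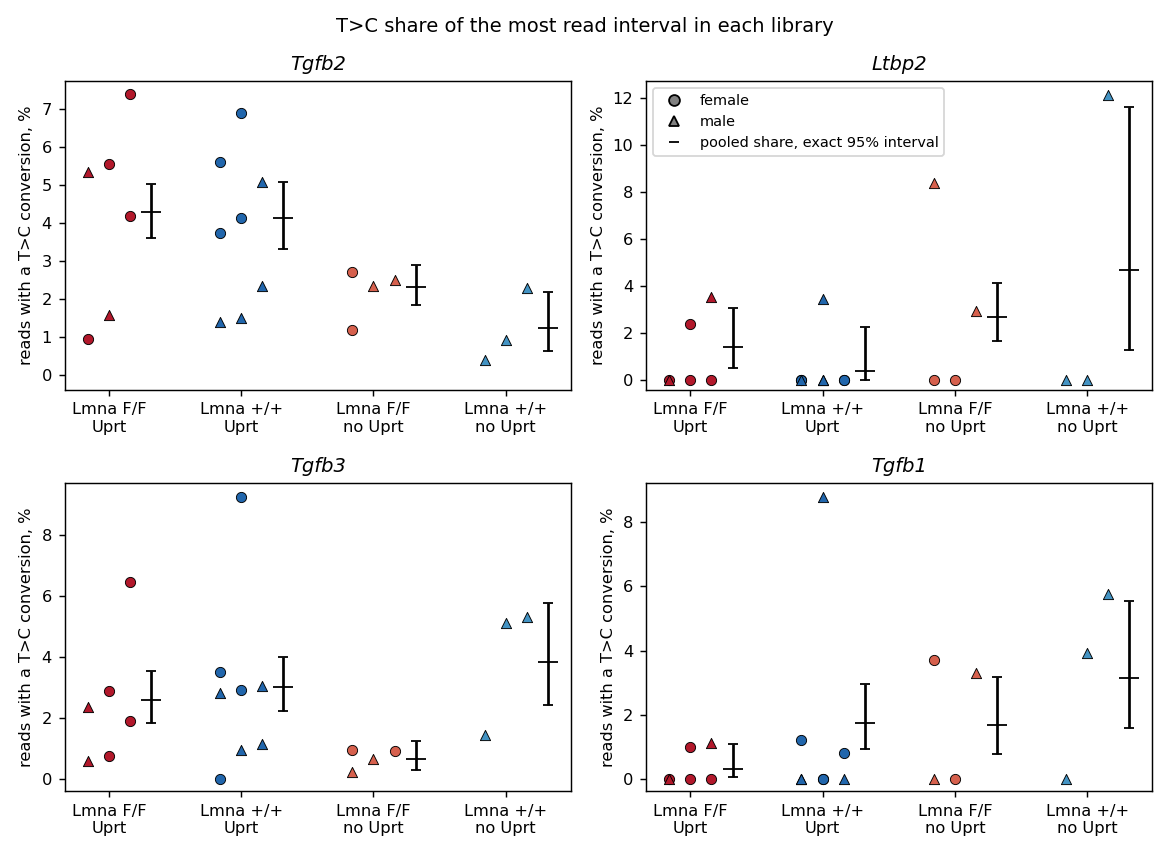
Reads that carry a T>C conversion, as a percentage of all reads, in the most read interval of each gene in each of the 21 libraries by group (circles females, triangles males; bars are the pooled share with its 95% exact binomial interval). The pooled Tgfb2 share is 4.27% and 4.12% in the Lmna F/F and Lmna +/+ mice with Uprt, against 2.31% and 1.23% in those without; most libraries of Ltbp2 and Tgfb1 are at 0.

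The intervals with the highest Pearson r to each member over the 21 libraries were looked up by position among 17095 intervals of at least 1 CPM on average. These correlations describe the same libraries and share their scaling and their groups, and carry no test. For Tgfb2 they lay on chromosome 15 from 38812624 to 38816307 (plus strand, Pearson r = 0.94) and on chromosome 13 from 34258257 to 34258450 (minus strand, r = 0.93), and for Ltbp2 on chromosome 9 from 65185093 to 65187817 (plus strand, r = 0.94) and on chromosome 11 from 93847805 to 93850221 (minus strand, r = 0.91). The order depended on the measure: by Spearman's rho the first Tgfb2 interval was in place 23 and the second Ltbp2 interval in place 301 (rho = 0.70), and by Pearson's r in the 14 libraries with Uprt they were in places 43 and 53. For Tgfb3 the values were 0.88, on chromosome 9 from 43132532 to 43133870 (minus strand), and 0.87, on chromosome 11 from 68963425 to 68964119 (plus strand). For Tgfb1 the best were 0.71 on chromosome 2 from 32565121 to 32565257 and 0.69 from 80177998 to 80178139 (both plus strand), which were in places 119 and 60 in the 14 libraries with Uprt. Its r was lower with intervals in general: the 95th percentile was 0.37, and this interval held only 47 to 189 reads per library. Between members r was 0.69 for Tgfb2 with Tgfb3, 0.60 for Tgfb2 with Ltbp2 and 0.23 for Tgfb3 with Ltbp2. Tgfb1 reached at most 0.36 with another member. The 95th percentile of r over all intervals compared was 0.71 for Tgfb2, 0.67 for Ltbp2 and 0.57 for Tgfb3. Both values with Tgfb2, 0.69 and 0.60, thus lay below the percentile of Tgfb2, and 0.60 also lay below that of Ltbp2. The value of 0.69 lay above the percentile of Tgfb3.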

How the data were processed

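The deposited table lists 208307 intervals for each of 21 libraries in the column layout of SlamDunk, per the file headers, on build mm39, per the submitters' processing notes. RNA (1.5 µg) was alkylated with 12 mM iodoacetamide, made into strand-keeping 3′ libraries and read over 100 bases from one end, per the labels' protocols. Its read, T>C read, multimapped read and conversion columns are counts, per the file headers, and were used as deposited. No aligner, annotation release or rule for marking a T>C read is stated in the labels or headers. The deposited conversion rate, a fraction, and the deposited CPM column, taken here to be a score, were not used.

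Chains of overlapping intervals were reduced to the most read one, which left 120310. All reads of the 21 libraries were fitted once by the quasi-likelihood test of edgeR 4.0.16 (R 4.3.3), after filterByExpr at a minimum count of 10 and TMM scaling, with a mean per group and a sex term. The same was done for T>C reads in the 14 Uprt libraries. T>C shares were fitted on converted and unconverted reads with an effect per library. P-values were adjusted over all intervals tested (Benjamini-Hochberg, threshold 0.05), and SE is the fold change over the root of F. Percentages by library were compared by two-sided exact permutation in Python 3.11.15, and pooled shares carry 95% exact (Clopper-Pearson) intervals. PCR copies cannot be told from separate molecules here, so these intervals cover counting error only. The Lmna contrasts in reads and in T>C reads, and the Uprt contrast in shares, were run on simulated data. The separate sex fit was not. The outcome of the simulated runs is not given here, and no result above rests on it. The sex contrasts were chosen after seeing the values.

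Each library is 1 mouse, and libraries of a group differed by far more than counting noise (chi-square per degree of freedom at least 15.5 in any pair). The labels give no batch. The genes and lists were chosen with earlier results of these data known. The named intervals are the most read one of each window in full, the rest by range, and the 2 most correlated intervals outside the windows, on log2(CPM + 0.5). Lists of pathway genes and cell type markers were not run and Lmna itself was not checked, since the supplied tables are of GRCm38.p6 and do not hold the transcript IDs. Alternatives included DESeq2 1.42.0, other scalings, no filter, no sex term, fewer libraries, and each library left out in turn.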

Additional observations from a re-analysis of the deposited data

Results flagged for a closer look

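Of 24 sets of values examined (the CPM and the T>C share of 4 genes in the 3 groups of 4 to 10 libraries), 4 had a library far from the rest of its group, where chance gives about 1 in 20. That rate does not hold for shares that are 0 in most libraries, as for Ltbp2 and Tgfb1, where a single read can set a library apart. Tgfb1 in Lmna F/F Uprt replicate 3 was at 4.49 CPM, with the next library of that group at 2.59 CPM. The Tgfb1 share in Lmna +/+ Uprt replicate 5 was 8.8% (11 of 125 reads), with the next at 1.19%. The Tgfb3 share in Lmna +/+ Uprt replicate 3 was 9.26% (15 of 162 reads), with the next at 3.53%. The Ltbp2 share in Lmna +/+ Uprt replicate 5 was 3.45%, which is 1 of 29 reads, with 0 in the other libraries of that group.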

How the results depend on the processing

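No paired analysis was possible because the replicate numbers only name libraries in accession order. Scaling by library size alone moved the median of all intervals to 0.16 with Uprt and 0.17 without, and put Tgfb1 with Uprt at 0.14, under that shift; it turned the split of calls without Uprt from 1079 higher and 536 lower into 1453 and 265. The members' other changed values are log2. With Uprt, females alone gave 0.45 for Tgfb2 (call lost), -0.088 for Tgfb3 and 0.022 for Tgfb1, and no filter gave 1.14 for Ltbp2 (call gained). Without Uprt, the 7 libraries alone gave 1.34 for Tgfb2 and 3.10 for Ltbp2 (calls lost, on fewer samples). Leaving out Lmna F/F no Uprt replicates 1 and 2 gave 0.36, 1.15 and -0.0080 for Tgfb2, Ltbp2 and Tgfb1, -0.066 for the third Tgfb1 interval, and 0.38 and 0.013 for the difference of the Lmna effect in Tgfb2 and Ltbp2; no filter gave -2.01 there for Ltbp2. Summed by transcript, the third Tgfb1 interval was 0.017 with and -0.11 without Uprt. For the Tgfb2 share, no sex term gave 1.25, Uprt minus none; between genotypes the means differed by 0.33 percentage points by library and by 0.026 points in conversions over read T bases (0.014 for Tgfb3). The cause of these changes was not tested.

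Leaving out each library gave, with Uprt, -0.21 to 0.069 for Tgfb1, 0.65 to 0.85 for Tgfb2 and -0.058 to 0.16 for Tgfb3; without Uprt, -0.038 to 0.22 for Tgfb1, -0.998 to 0.13 for its second interval, 0.75 to 1.43 for Tgfb2 and 2.64 to 3.54 for Ltbp2; for the difference, -0.38 to 0.033 for Tgfb1 and -0.67 to 0.0017 for Tgfb2; for the Tgfb2 share, 0.86 to 1.46 by Uprt and -0.30 to 0.27 by genotype; and 0.76 to 0.92 for Tgfb2 by sex.

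Intervals called with Uprt (761) became 1238 in DESeq2, 1304 by library size, 1588 with no filter, 1164 in the 14 libraries, 1253 without the 2 libraries, 350 in females, 278 in males and 505 to 918 without 1 library. Without Uprt (1615) they became 32 in the 7 libraries, 121 without the 2 and 458 to 2354 without 1. For the difference (0) they were 8 in DESeq2, 333 with no filter and 0 to 4 without 1. T>C reads (50) gave 95 in DESeq2 and 170 with no filter. The share by Uprt (7561) gave 3386 in Lmna +/+ and 5005 in males alone, and by genotype (1) 26 with no filter, 2 with no sex term and 0 to 3 without 1. The sex contrast (262) gave 739 with no filter, 603 in DESeq2 and 83 to 451 without 1. Of 185 settings for single members other than leaving out 1 library, 165 kept direction and side of the threshold. Most of these belong to results that were not called, so this count does not measure how stable the calls are. The call was kept in 11 of 12 settings for Tgfb2 with Uprt, and in 3 of 3 for Tgfb2 by sex. Without Uprt it was kept in 8 of 10 for Tgfb2 and in 8 of 10 for Ltbp2. Depth limits the T>C shares: the most read intervals of Ltbp2 and Tgfb1 had 32 and 35 T>C reads in all. The sex contrast, the sexes alone and the 2 libraries left out together in the with-Uprt and difference tests were added after seeing the data.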

Other observations

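The sixth Tgfb1 interval, from 25393648 to 25393765, held 9 reads in all. Of these, 6 were in Lmna F/F no Uprt replicate 4, and all 6 carried a T>C conversion although the mouse lacked Uprt. The fifth, from 25387985 to 25388149, had reads in 6 of the 21 libraries, 18 of its 23 reads in Lmna F/F mice with Uprt and 0 in the 8 Lmna +/+ mice with Uprt. Without Uprt the direction was the other way, with 0 reads in the 4 Lmna F/F mice and 5 in Lmna +/+ replicate 3. Both fell below the low-count filter.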
